A study of Mus musculus with 3 samples.

Results

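The solute carrier (SLC) genes are the largest group of membrane transporter genes in mammals. Their transcripts were read here at 0, 2 and 12 h of lipopolysaccharide (LPS) in RAW264.7, macrophage-like mouse cells transformed with Abelson murine leukaemia virus. LPS is the bacterial outer membrane component sensed through Toll-like receptor 4. A gene was taken when its annotated symbol was Slc followed by a number and when at least 1 probe set naming that gene alone had a deposited signal of 35 or more on at least 1 of the 3 arrays. The 7 genes Slc2a1, Slc16a3, Slc7a2, Slc7a11, Slc11a1, Slc11a2 and Slc40a1 were set aside by the rule. This gave 174 genes from 41 SLC families, out of 255 other SLC genes that had a probe set naming them alone and 12393 named genes in all. The remaining 81 SLC genes stayed under a signal of 35 on every array. The members were thus chosen by their measured signal on these arrays, so their being detected is no result. The 3 members nearest the threshold had highest deposited signals of 35.2 (Slc4a4), 35.7 (Slc23a1) and 35.9 (Slc25a14), and the nearest genes outside it had 34.8 (Slc6a14), 34.2 (Slc30a2) and 34.2 (Slc3a1).

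RNA was hybridised to 1-colour arrays of the Affymetrix type, a single array for each of 0, 2 and 12 h of LPS. There were no replicates, and no array of untreated cells at 2 or 12 h was analysed here, so LPS and time in culture cannot be told apart. The LPS dose is not given in the sources used here, and the cells were 1 immortal line with no other genotype or agent named. With 1 array a time no test of the conditions was possible and no p-value is given. Differences are described by size, and a gene was counted when its signals differed at least 2-fold. Signals are linear and relative to the mean of their array. Brightness differs between probe sets, so signals were ranked between genes only to choose which to name, and such a rank is no result.

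Values under 34.96, the 40th percentile of all scaled signals, were raised to that floor. Of the 174 SLC genes, the 0 h array had 157 at or above it, the 2 h array 149 and the 12 h array 162. On all 3 arrays 140 were above it. Another 14 were under it on 1 array and 20 on 2. These 34 genes had no signal over 62.0. Where an array was under the floor their difference is a bound, which does not show that a gene differed less than 2-fold. At these signals none could be 2-fold above the floor of 34.96, so that none was counted is no result. Their largest floored difference was 1.77-fold. The only error the arrays hold is how far a gene's probe sets differ among themselves. For SLC genes read by several probe sets above the floor, log2 differences scattered between a gene's probe sets with an SD of 0.29 at 2 h and 0.29 at 12 h, both against 0 h, from 47 and 51 genes. For 12 h against 2 h the SD was 0.28 from 45 genes. The SDs over all genes were 0.32, 0.34 and 0.31. Variation between cultures was not measured, and in bulk RNA fewer cells with a transcript and less of it per cell cannot be told apart.

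All 9 macrophage markers examined, among them Cd68, Csf1r, Itgam and Adgre1, were above the floor on every array, and their summed signal was 21599 at 0 h, 21424 at 2 h and 24092 at 12 h. All 5 T cell markers were under it on every array. Of the markers of B cells, fibroblasts, epithelium, endothelium and neutrophils, Cd79a, Col1a1, Epcam, Cdh5 and Prtn3 were also under it on every array. Ms4a1, Col1a2, Krt8, Kdr, Elane and Mpo, and the erythroid genes Epor and Klf1, passed it on at least 1 array, with no signal above 97.3.

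SLC proteins move nutrients, ions, metals and metabolites across the plasma membrane and the membranes of mitochondria, lysosomes, Golgi and endoplasmic reticulum. Most are driven by a gradient of sodium or protons or by exchange of one solute for another, and unlike the ATP-binding cassette (ABC) pumps they do not split ATP themselves. In macrophages they supply amino acids and glucose to activated cells, control zinc and copper, both of which bear on bacterial growth, and pass bacterial peptides out of the phagosome and lysosome. A total of 3 members are named after a carrier without being one: Slc4a1ap encodes an adaptor-like nuclear protein, and Slc9a3r1 and Slc9a3r2 encode scaffolds that bind a sodium proton exchanger.

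Most SLC genes differed little between the arrays. At 2 h, 85.9% of the 163 measured members lay within 1.5-fold of 0 h, against 84.8% of all 8413 measured genes. At 12 h the shares were 85.3% of 170 members and 81.4% of 8619 genes. Only 11 members were counted as at least 2-fold apart in any of the 3 comparisons. All 11 were above the floor on every array, since the 34 members under it on some array were too dim to be counted. They were Slc15a3, Slc31a2, Slc6a12, Slc39a1, Slc20a1, Slc37a2, Slc19a2, Slc25a42, Slc6a13, Slc41a2 and Slc16a8.

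At 2 h, 3 of 163 members (1.84%) were at least 2-fold higher than at 0 h, where 2.09% of all genes were, and 1 member (0.613%) was at least 2-fold lower, where 1.68% of all genes were. The 3 higher genes were Slc15a3, Slc20a1 and Slc31a2, and the lower one was Slc25a42. At 12 h, 4 of 170 members (2.35%) were at least 2-fold higher than at 0 h and 2 (1.18%) at least 2-fold lower, against 3% and 2.39% of all genes. Higher were Slc15a3, Slc31a2, Slc6a12 and Slc39a1, and lower were Slc19a2 and Slc37a2. With 1.5-fold as the size that counts, 8 members were higher (4.91%) and 15 lower (9.2%) at 2 h, against 5.59% and 9.63% of all genes. At 12 h 15 were higher (8.82%) and 10 lower (5.88%), against 8.27% and 10.3% of all genes. At 3-fold no member was counted at 2 h, where 1.03% of all genes were higher and 0.155% lower. At 12 h 3-fold was reached by 2 higher members and by no lower one, against 1.16% and 0.313% of all genes. Against 0 h, the shares at 2-fold were thus close to or under the background.

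Between 2 and 12 h, 7 of 169 members (4.14%) were at least 2-fold higher at 12 h, with 2.65% of all genes, and 1 (0.592%) was at least 2-fold lower, with 1.97% of all genes. The 7 were Slc15a3, Slc39a1, Slc25a42, Slc6a13, Slc6a12, Slc41a2 and Slc16a8. All but Slc15a3 had their lowest signal at 2 h. Slc25a42, Slc41a2 and Slc16a8 were at 90.1, 75.3 and 85.1 at 12 h, against 91.7, 66.5 and 63.0 at 0 h. The 1 lower gene was Slc19a2. With 1.5-fold as the size that counts, 20 members were higher and 9 lower, or 11.8% and 5.33% of the members, against 10.1% and 6.44% of all genes. Only Slc15a3 was at least 3-fold higher and no member was at least 3-fold lower, where 0.65% and 0.568% of all genes were.

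**Figure D1:**
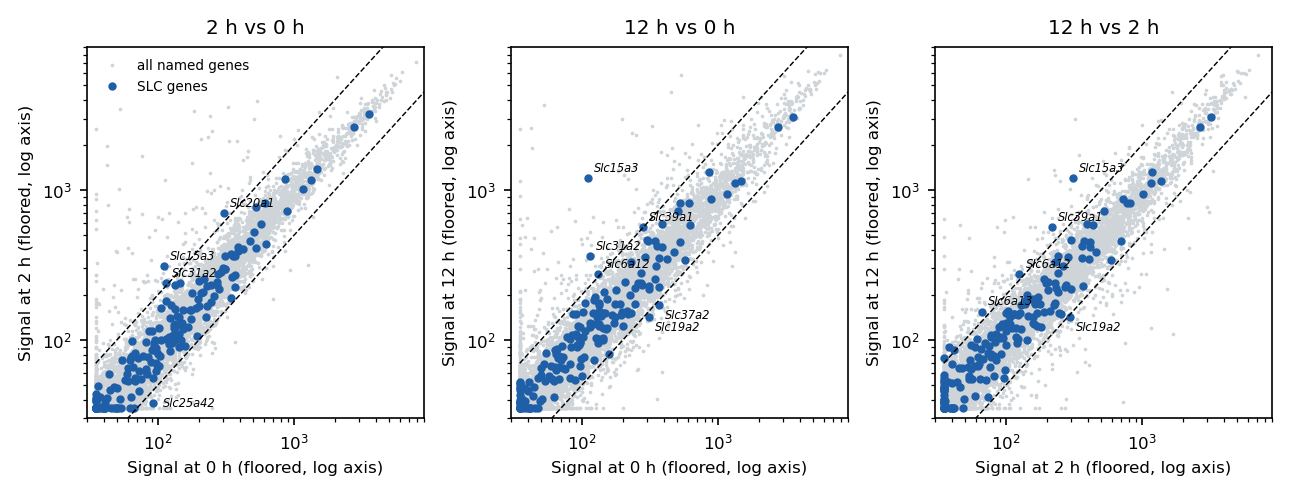
Scaled signal of each gene at the later time (vertical) against the earlier time (horizontal), floored at 34.96, on log axes, for 2 h against 0 h, 12 h against 0 h and 12 h against 2 h. Grey points are all named genes, blue points the 174 SLC genes and dashed lines mark 2-fold. Slc15a3 stands farthest above the lines at 12 h. Members at least 2-fold apart are named, except 3 with signals under 100 in the right panel.

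The median log2 difference of the SLC genes was -0.11 at 2 h (all genes -0.10), 0.01 at 12 h (all genes -0.05) and 0.15 for 12 h against 2 h (all genes 0.05). The small negative medians at 2 h depended on the scaling. With each array set to one median, the median of all genes above the floor on both arrays was 0.04 at 2 h where it had been -0.10, and that of the SLC genes was 0.02. For 12 h against 2 h this scaling moved the median of all measured genes from 0.05 to -0.04. Differences of 0.1 to 0.2 on the log2 scale are therefore no guide to direction at 2 h or between 2 and 12 h.

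The largest difference belonged to Slc15a3. It encodes a proton-coupled carrier of histidine and small peptides in the lysosomal membrane, which exports bacterial muramyl peptides towards the cytosolic sensors. Its 1 probe set had signals of 111 at 0 h, 309 at 2 h and 1201 at 12 h. The signal was thus higher at each later array, 2.79-fold at 2 h and 10.8-fold at 12 h against 0 h, and 3.88-fold at 12 h against 2 h. Slc15a4, its lysosomal relative that takes part in signalling by endosomal Toll-like receptors, had signals of 134, 128 and 171 at 0, 2 and 12 h. Its 12 h signal was 1.28-fold that of 0 h, a log2 difference of 0.35 that is about the size of the spread between probe sets.

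Slc31a2 was the other member at least 2-fold higher than 0 h at both times. Its product, a relative of the plasma membrane copper importer Slc31a1, sits mostly in late endosomes and lysosomes. The probe set used had signals of 114, 240 and 362 at 0, 2 and 12 h, which is 2.11-fold higher at 2 h and 3.17-fold higher at 12 h than at 0 h. A second probe set of Slc31a2 read 80.9, 311 and 346 and gave log2 differences of 1.94 and 2.10, against 1.08 and 1.66 for the first. Both probe sets were higher at 2 h and at 12 h, and they differed in how much of the increase was present by 2 h. Slc31a1 had signals of 231, 229 and 332, with log2 differences of -0.01 at 2 h and 0.53 at 12 h.

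Zinc carriers of both directions were measured, 7 exporters of the Slc30 family, which lower cytosolic zinc, and 9 importers of the Slc39 family, which raise it. At 12 h only Slc39a1 was at least 2-fold higher. It encodes a plasma membrane zinc importer, and its signals were 281, 219 and 566 at 0, 2 and 12 h. It was 2.02-fold higher at 12 h than at 0 h and 2.59-fold higher than at 2 h, where it had been lowest. Slc39a7, the importer that releases zinc from the endoplasmic reticulum, had 389, 393 and 592, or 1.52-fold higher at 12 h than at 0 h. Slc30a7, which loads zinc into the Golgi, had 299, 301 and 468, or 1.57-fold higher at 12 h. All 3 were near or below their 0 h signal at 2 h.

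Other zinc genes were highest at 2 h. Slc30a1, the plasma membrane zinc exporter, had signals of 64.4, 98.0 and 62.9 at 0, 2 and 12 h, 1.52-fold higher at 2 h than at 0 h. Slc39a13, an importer of intracellular vesicles, had 115, 181 and 123 and was 1.58-fold higher at 2 h. Slc39a14, which carries zinc and iron, had 219, 254 and 150 by the probe set used and was 1.70-fold lower at 12 h than at 2 h, but its other probe set read 110, 110 and 112. Of the exporters, 5 of 7 were above their 0 h signal at 2 h (median log2 difference 0.20), and 2 of 7 at 12 h (-0.06). Of the importers the counts were 3 of 8 (-0.16) and 5 of 9 (0.09), where 3162 of 8413 and 3898 of 8619 of all genes were above. These medians lie within the spread between probe sets.

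**Figure D2:**
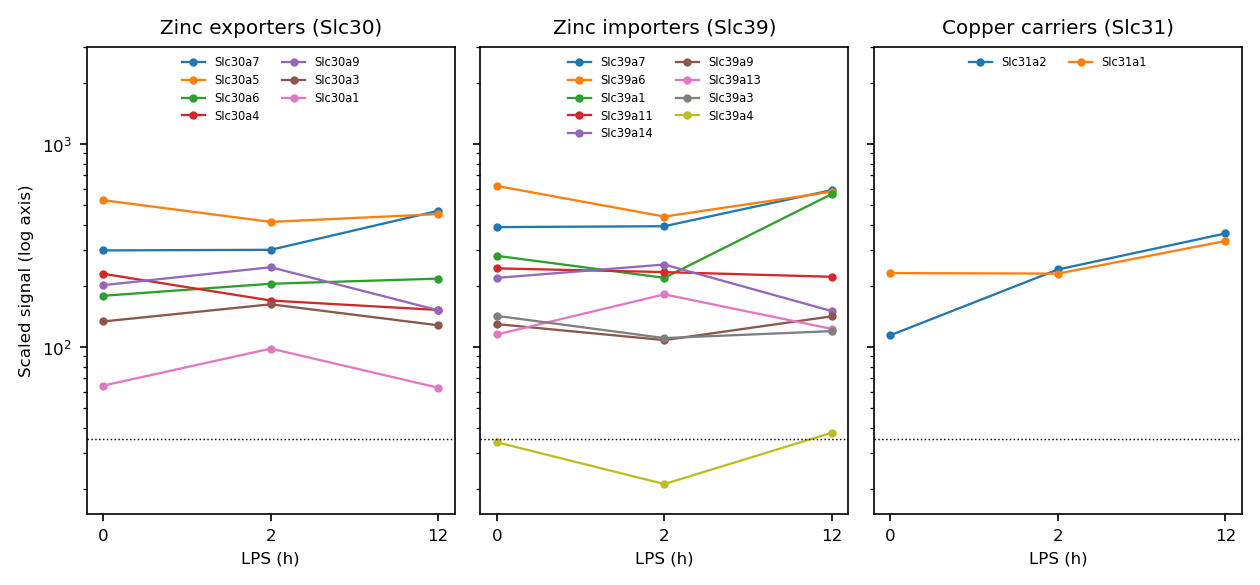
Scaled signals (log axis) of the 7 zinc exporter genes, 9 zinc importer genes and 2 copper carrier genes at 0, 2 and 12 h of LPS, 1 array a time, with times spaced evenly and the floor dotted. Each line is the probe set used for a gene. Slc39a1, Slc39a7 and Slc30a7 are highest at 12 h, Slc30a1 and Slc39a13 at 2 h, and Slc31a2 is higher at each later time.

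Genes of intracellular zinc and copper handling were read beside them. Mt2, a metallothionein that binds zinc and copper, had signals of 857, 1839 and 1259 and was 2.15-fold higher at 2 h than at 0 h. It was the 1 gene of 6 on that list at least 2-fold higher at 2 h, where 2.09% of all genes were. None of the 6 reached 2-fold at 12 h against 0 h, where 3% of all genes were higher and 2.39% lower. Mt1, the partner of Mt2, had 1382, 1857 and 1649. Mtf1, the metal-responsive transcription factor of metallothionein genes, had 81.6, 88.4 and 71.5. Atp7a, the copper pump of the secretory pathway and the phagosome, had 225, 148 and 276, with log2 differences of -0.61 at 2 h and 0.29 at 12 h.

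Slc20a1 was the phosphate carrier that reached 2-fold. It encodes a sodium-coupled phosphate importer of the plasma membrane that some gammaretroviruses use as receptor. Its signals were 304, 703 and 461 at 0, 2 and 12 h, which is 2.31-fold higher at 2 h and 1.51-fold higher at 12 h than at 0 h. The highest signal was thus at 2 h. A second probe set was under the floor on all 3 arrays, at no more than 14.7, and could not be compared. Slc20a2, the related importer, had 153, 158 and 188, a log2 difference of 0.05 at 2 h and 0.30 at 12 h. The other probe set of Slc20a2 read 103, 82.8 and 118, with log2 differences of -0.32 and 0.19.

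The Slc37 family of endoplasmic reticulum sugar phosphate carriers had all 4 members below their 0 h signal at 2 h, with log2 differences of -0.49 to -0.83, where 5251 of all 8413 genes were below. For Slc37a1 this is a bound, since it was under the floor at 2 h. Slc37a2, a phosphate-linked glucose 6-phosphate exchanger prominent in macrophages, had signals of 367, 224 and 171 and was 2.14-fold lower at 12 h than at 0 h. Slc37a4, the glucose 6-phosphate carrier of glycogen breakdown and gluconeogenesis, had 144, 89.9 and 104 with a log2 difference of -0.68 at 2 h. Slc37a3 had 83.7, 59.8 and 89.6. By 12 h Slc37a2 was lower still, while Slc37a1 and Slc37a3 were at 53.2 and 89.6, against 62.0 and 83.7 at 0 h.

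Slc19a2, the thiamine importer, was lower at 12 h than at 0 h and lower than at 2 h. Its signals were 310, 296 and 143, 2.17-fold lower at 12 h than at 0 h and 2.07-fold lower than at 2 h. The second probe set had 102, 88.1 and 70.2, a log2 difference of -0.54 at 12 h where the first gave -1.12, so both were lower and only one by 2-fold. Slc19a1, the reduced folate carrier of the same family, had 390, 415 and 415 by the probe set used, while its other detected probe set read 231, 372 and 281, a log2 difference of 0.68 at 2 h. Slc52a3, which carries riboflavin, had 97.3, 62.0 and 67.4 and was 1.57-fold lower at 2 h. Slc23a2, the ascorbate importer, had 293, 284 and 356.

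Slc6a12 and Slc6a13 lie next to each other among the protein-coding genes of chromosome 6 in RefSeq. They encode sodium-coupled carriers of gamma-aminobutyric acid, and Slc6a12 also carries the osmolyte betaine. Slc6a12 had signals of 132, 126 and 274 at 0, 2 and 12 h. It was 2.07-fold higher at 12 h than at 0 h and 2.18-fold higher than at 2 h. Slc6a13 had 101, 66.7 and 155, which is 1.53-fold higher at 12 h than at 0 h and 2.32-fold higher than at 2 h. Both genes were highest at 12 h, and at 2 h Slc6a13 was below its 0 h signal while Slc6a12 differed by -0.07 on the log2 scale. Each was read by 1 probe set. Of the other neighbouring member pairs, Slc38a1 and Slc38a2 had log2 differences of 0.24 and 0.28 for 12 h against 2 h, and Slc25a29 and Slc25a47 had 0.44 and 0.41. A second probe set of Slc25a29 gave 0.12.

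RefSeq promoter windows, from 250 bases before to 50 after each annotated start on build GRCm38.p6, were found for 132 of the 174 members and 10 of the 11 at least 2-fold apart. Slc15a3 had no entry. The 250 bases before the start are shown for the neighbouring pair, whose signals were both highest at 12 h, and for Slc31a2 and Slc20a1, the metal and phosphate carriers that were at least 2-fold higher at 2 h. Capitals mark matches on either strand to the motifs described below. Of genes with several starts, only windows holding a match were chosen to be shown. No motif matched in the windows of the first and second starts of Slc6a13, the fifth of Slc6a12 or the second of Slc20a1. The windows, all on the plus strand, are chr6:121342324-121342573 (first of 5 annotated starts) and chr6:121342826-121343075 (the third) for Slc6a12, chr6:121303389-121303638 (the third of 3) for Slc6a13, chr4:62286179-62286428 for Slc31a2 and chr2:129198523-129198772 (the first of 2) for Slc20a1.
Slc6a12, start 1: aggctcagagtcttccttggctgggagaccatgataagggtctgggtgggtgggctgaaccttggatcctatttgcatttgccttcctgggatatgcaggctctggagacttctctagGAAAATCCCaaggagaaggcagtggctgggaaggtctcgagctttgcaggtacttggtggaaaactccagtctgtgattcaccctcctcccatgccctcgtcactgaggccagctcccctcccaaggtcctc
Slc6a12, start 3: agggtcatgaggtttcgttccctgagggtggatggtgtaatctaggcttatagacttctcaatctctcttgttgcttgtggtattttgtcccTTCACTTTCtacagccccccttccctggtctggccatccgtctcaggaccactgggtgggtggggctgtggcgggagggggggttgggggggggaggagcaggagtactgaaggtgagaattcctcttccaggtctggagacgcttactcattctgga
Slc6a13, start 3: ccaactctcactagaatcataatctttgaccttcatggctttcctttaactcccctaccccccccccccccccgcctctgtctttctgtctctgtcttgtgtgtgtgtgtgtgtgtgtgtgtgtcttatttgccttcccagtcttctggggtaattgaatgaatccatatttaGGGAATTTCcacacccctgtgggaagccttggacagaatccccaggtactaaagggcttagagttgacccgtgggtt
Slc31a2: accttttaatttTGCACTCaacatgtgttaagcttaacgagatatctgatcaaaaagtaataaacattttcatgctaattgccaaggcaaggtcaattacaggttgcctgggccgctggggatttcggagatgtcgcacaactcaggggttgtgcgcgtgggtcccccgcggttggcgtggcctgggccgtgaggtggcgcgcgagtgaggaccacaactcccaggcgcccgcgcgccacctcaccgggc
Slc20a1, start 1: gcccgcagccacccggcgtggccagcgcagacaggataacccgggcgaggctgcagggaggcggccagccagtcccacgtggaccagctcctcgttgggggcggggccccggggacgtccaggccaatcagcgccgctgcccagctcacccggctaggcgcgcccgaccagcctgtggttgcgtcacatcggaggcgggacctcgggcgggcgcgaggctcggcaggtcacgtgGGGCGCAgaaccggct

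Motifs of 4 kinds were searched on both strands. GGGANTTTC, the first letters of a kappa B element, occurred once in the first of the Slc6a12 windows and once in the Slc6a13 window, 132 bases before the first start of Slc6a12 on the minus strand and 77 bases before the third start of Slc6a13 on the plus strand. It was present in 1.11% of all 32851 windows and in 4 of 190 windows of SLC members (2.11%). GAAANNGAA, the core of an interferon-stimulated response element, lay on the minus strand 158 bases before the third start of Slc6a12 and, as the same site, in the overlapping second window. This core was present in 8.56% of all windows and 6.32% of member windows. TGCGCNC or TGCACNC, the metal response element core, lay 238 bases before the start of Slc31a2 and 16 before the first start of Slc20a1. It was also in the windows of Slc41a2, Slc16a8 and the fourth start of Slc6a12, 5 of the 17 windows of members at least 2-fold apart, and in 25.7% of all windows and 36.8% of member windows. TGATGCAA or TGATGAAA, the amino acid response element core, was in none of the 17 windows of members at least 2-fold apart and in 1.90% of all windows. No motif overlapped another in the windows shown. A match describes letters only, and the start used by these cells was not measured.

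**Figure D3:**
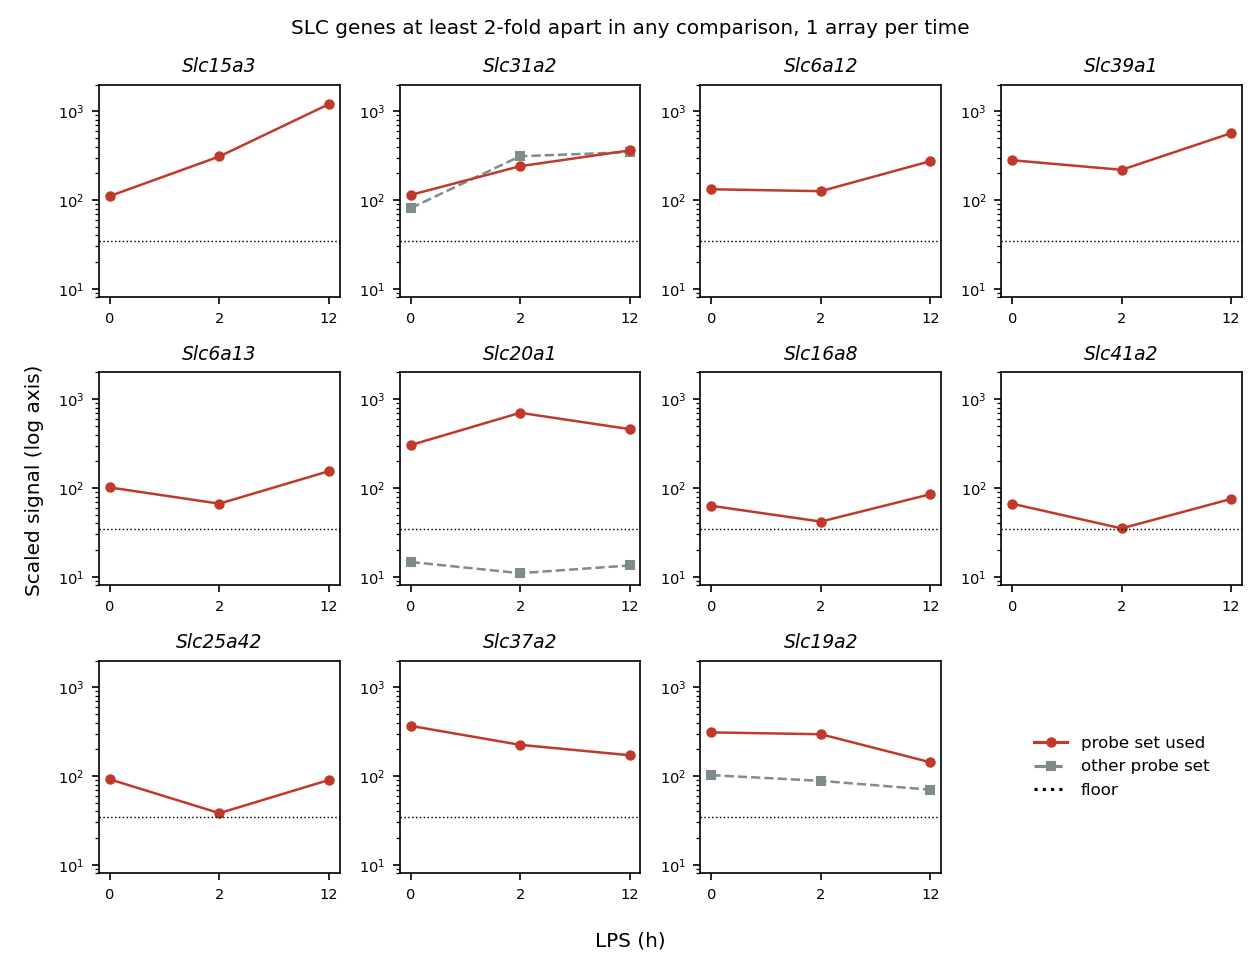
Scaled signals (log axis) at 0, 2 and 12 h of LPS for the 11 SLC genes at least 2-fold apart in any comparison, 1 array a time, with times spaced evenly. Red circles are the probe set used, grey squares a gene's other probe set and the dotted line is the floor of 34.96. Slc15a3 is higher at each later time, Slc20a1 peaks at 2 h, and Slc25a42, Slc41a2 and Slc16a8 dip at 2 h towards the floor.

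The Slc25 genes, grouped by family name alone, were the largest class with 30 members. Most encode carriers that exchange nucleotides, phosphate, amino acids and other metabolites across the mitochondrial inner membrane. At 2 h 26 of the 30 Slc25 genes were below their 0 h signal, and the class median was -0.21 on the log2 scale (all genes -0.10, with 5251 of 8413 below). With arrays set to one median the count was 20 of 30 and the median -0.07. At 12 h 21 of 29 were below 0 h, where 4716 of all 8619 genes were. Their median was -0.19, and with arrays set to one median 17 of 29 were below, with a median of -0.14. The sign of the class median was the same with the deposited, median-scaled and quantile-normalized values.

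Several mitochondrial carriers of general energy metabolism differed little. Slc25a5, the main adenine nucleotide exchanger of proliferating cells, had signals of 3536, 3193 and 3083 at 0, 2 and 12 h. Slc25a3, the phosphate carrier that feeds ATP synthase, had 2768, 2652 and 2617. Slc25a4, the adenine nucleotide exchanger of heart and muscle, had 1328, 1159 and 1115, and Slc25a39, which supplies glutathione to the matrix, had 1462, 1374 and 1150. By the probe sets used, none of these 4 genes differed from 0 h by more than 0.35 on the log2 scale. The 8 probe sets of Slc25a5 ranged from -0.42 to 0.46 at 2 h, and the other probe sets of Slc25a39 gave -0.45 and -0.37 at 12 h.

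Larger differences were found among other mitochondrial genes. Slc25a42, the carrier that brings coenzyme A into mitochondria, had signals of 91.7, 38.2 and 90.1 and was 2.40-fold lower at 2 h than at 0 h. It was back at its 0 h signal at 12 h, 2.36-fold above 2 h. The 2 h value lay just above the floor, and a floor at the 60th percentile left a log2 difference of -0.12. Slc25a36, a pyrimidine nucleotide carrier, had 158, 91.7 and 80.2, 1.72-fold lower at 2 h and 1.97-fold lower at 12 h. Its other probe set gave -0.47 and -0.45 on the log2 scale. Slc25a33, the other pyrimidine nucleotide carrier, was instead highest at 2 h, with 133, 231 and 176, or 1.74-fold higher at 2 h and 1.32-fold higher at 12 h.

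Slc25a22, a mitochondrial glutamate carrier, had 345, 190 and 254 and was 1.82-fold lower at 2 h than at 0 h. Slc25a25, which exchanges ATP-magnesium for phosphate, had 122, 84.6 and 73.4, 1.66-fold lower at 12 h. Slc25a15, the ornithine carrier of the urea cycle, had 89.2, 71.8 and 54.2, 1.65-fold lower at 12 h, and its other probe set gave a log2 difference of -0.31. Slc25a30 was 1.83-fold lower at 2 h by the probe set used, but of its other 4 probe sets 1 gave -0.74 as a bound, those above the floor gave 0.10 and -0.06, and 1 was under the floor. The iron importers Slc25a37 and Slc25a28 had 131, 107 and 128 and 147, 99.4 and 151.

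Amino acid carriers, 17 members with Slc7a2 and Slc7a11 set aside by the rule, held no gene at 2-fold in any comparison. Of all genes 3.77% were at least 2-fold apart at 2 h, 5.40% at 12 h and 4.62% for 12 h against 2 h. The median log2 difference was 0.01 at 2 h and 0.09 at 12 h. Slc3a2, the heavy chain that brings several Slc7 light chains to the plasma membrane, had signals of 861, 1188 and 1324 and was 1.38-fold higher at 2 h and 1.54-fold higher at 12 h than at 0 h. Slc7a7, a light chain for cationic and neutral amino acids, had 54.5, 74.1 and 82.4, 1.51-fold higher at 12 h. Slc7a5, the light chain for large neutral amino acids such as leucine, had 311, 365 and 229. The log2 difference of 12 h against 2 h was -0.68, while its heavy chain was highest at 12 h. Slc7a8, another light chain for neutral amino acids, had 132, 121 and 95.7.

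Slc1a5, the sodium-coupled carrier of glutamine and other neutral amino acids, had 616, 821 and 820, a log2 difference of 0.41 at both times. The glutamine carriers Slc38a1 and Slc38a2 had 359, 362 and 427 and 885, 720 and 876. Slc7a1, the main carrier of arginine in most cells, had 67.6, 81.9 and 77.8. Slc43a3, a purine nucleobase carrier in a family of amino acid carriers, had 81.7, 97.6 and 56.2 and was 1.74-fold lower at 12 h than at 2 h. Genes of the amino acid response were read beside them. Atf4, its transcription factor, had 637, 633 and 573, and Asns, which makes asparagine, had 575, 574 and 739. Of 11 genes on that list, 1 of 9 measured was at least 2-fold higher at 2 h, Nupr1 at 2.61-fold, where 2.09% of all genes were. At 12 h it was 1 of 11, Ddit3 at 2.15-fold, where 3% of all genes were at least 2-fold higher. None on the list was 2-fold lower at either time against 0 h, where 1.68% and 2.39% of all genes were.

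Among the other Slc6 genes, Slc6a8, the creatine carrier, had 91.2, 115 and 149 and was 1.63-fold higher at 12 h than at 0 h. Its other probe set gave a log2 difference of 0.46. Slc6a6, the taurine carrier, had 345, 375 and 454, a log2 difference of 0.40 at 12 h, where its other probe sets gave 0.10 and -0.12. Slc6a9, a glycine carrier, had 92.9, 91.4 and 105, but its other probe set was lower at both times, with log2 differences of -0.76 and -0.81. Of the 11 Slc6 members, 9 were above 0 h at 12 h, where 3898 of all 8619 genes were. The class median was 0.18 on the log2 scale (all genes -0.05). Of the 11, 4 were under the floor on at least 1 array, so that their differences are bounds, and Slc6a17 and Slc6a18 were above by only 0.05.

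The 16 Slc35 genes, most of which carry nucleotide sugars into the Golgi and endoplasmic reticulum for glycosylation, were all above the floor on every array. None was 2-fold apart, where 3.77% of all genes were at 2 h, 5.40% at 12 h and 4.62% for 12 h against 2 h. Against 2 h, 14 of 16 were higher at 12 h, by a median of 0.23 on the log2 scale, where 4713 of 8457 genes were higher and the median was 0.05. With arrays set to one median it was 11 of 16 and 0.13. Slc35a4, a Golgi member, had signals of 525, 769 and 822, 1.46-fold higher at 2 h and 1.57-fold higher at 12 h than at 0 h, with its other probe set at 0.42 and 0.38 on the log2 scale. Slc35b1, which exchanges ATP and ADP across the endoplasmic reticulum membrane, had 507, 528 and 727. Slc35b4, a carrier of UDP sugars, had 124, 141 and 185, a log2 difference of 0.58 at 12 h, where its other probe sets gave 0.10 and 0.09. Slc35b2, which imports the sulfate donor of the Golgi, had 353, 262 and 311.

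With Slc2a1 set aside by the rule, the 12 members of the Slc2, Slc5, Slc45 and Slc50 families are mostly sugar carriers. They include Slc5a5, which carries iodide, and Slc5a6, which carries vitamins. They had a median log2 difference of -0.31 at 2 h and -0.03 at 12 h, or -0.17 and 0.02 with arrays set to one median. None was 2-fold apart, where 3.77% of all genes were at 2 h, 5.40% at 12 h and 4.62% for 12 h against 2 h. Slc2a3, a high-affinity glucose carrier, had 366, 271 and 226 and was 1.62-fold lower at 12 h than at 0 h. Of its 3 other probe sets, 2 were also lower at 12 h (-0.86 and -0.27) and 1 was higher (0.25). Slc50a1, a sugar carrier of the Golgi and plasma membrane, had 258, 196 and 240. Among the monocarboxylate carriers, Slc16a1, which moves lactate and pyruvate with protons, had 1160, 1024 and 948, a log2 difference of -0.29 at 12 h. Slc16a8, a lactate carrier known from the retinal pigment epithelium, had 63.0, 41.9 and 85.1 and was 2.03-fold higher at 12 h than at 2 h. Slc16a11, another member of that family, was 1.75-fold lower at 12 h than at 0 h, at 57.1.

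Both choline carrier-like genes were lower at 12 h. Slc44a1, the choline importer of the plasma membrane and mitochondria, had 571, 595 and 341, 1.67-fold lower at 12 h than at 0 h and 1.74-fold lower than at 2 h. Slc44a2 had 201, 169 and 123, 1.63-fold lower at 12 h than at 0 h, and its other 2 probe sets gave log2 differences of -0.99 and -0.73 at 12 h. The other probe set of Slc44a1 gave -0.90, a bound, since it was under the floor at 12 h. Slc48a1, which returns heme from the lysosome to the cytosol, had 422, 407 and 347, a log2 difference of -0.28 at 12 h. Its other probe set gave 0.01 at 12 h. Slc33a1, the acetyl-CoA carrier of the endoplasmic reticulum, had 90.8, 85.3 and 109.

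Ion carriers gave small differences with few exceptions. Of the magnesium carriers, Slc41a2 had 66.5, 35.1 and 75.3, 1.90-fold lower at 2 h than at 0 h and 2.15-fold higher at 12 h than at 2 h. The 2 h value was at the edge of the floor. Slc41a3, the mitochondrial magnesium exporter, had 146, 242 and 208, 1.65-fold higher at 2 h, but a second probe set had a log2 difference of -0.38 as a bound. Slc12a4, a potassium chloride exporter that acts in volume control, had 106, 163 and 177 and was 1.67-fold higher at 12 h than at 0 h. Slc12a9, an orphan of that family, had 86.6, 116 and 149, 1.73-fold higher at 12 h, whereas Slc12a2, the sodium potassium chloride importer, had 198, 189 and 155. Of the other probe sets of Slc12a2, 1 gave -0.52 at 2 h and -0.40 at 12 h on the log2 scale, and 1 gave 0.02 and -0.20. Slc4a2, a chloride bicarbonate exchanger, had 139, 144 and 145, and the anion exchanger Slc26a6 had 72.6, 45.6 and 65.3.

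The remaining classes were small. Among nucleoside carriers, Slc29a1 of the plasma membrane had 310, 300 and 217 and Slc29a3 of the lysosome 98.4, 68.2 and 75.2. Of the fatty acid carriers, Slc27a1 had 191, 163 and 175, and Slc27a4 had 81.4, 61.0 and 101, 1.66-fold higher at 12 h than at 2 h. Slc17a9, which loads ATP into vesicles and lysosomes, had 84.4, 77.3 and 109 and was the 1 of 5 lysosomal and vesicular members above the floor on all arrays. Only 2 of 6 organic ion carriers were, namely Slc22a5, the carnitine importer, with 78.4, 78.0 and 104, and Slc22a17, a lipocalin receptor, with 126, 95.9 and 104. The other probe set of Slc22a5 was lower at both times, by -0.66 as a bound at 2 h and -0.61 at 12 h on the log2 scale. The calcium exchanger of mitochondria, Slc8b1, had 106, 100.4 and 116, Slc10a3 had 214, 209 and 157, and Slc66a2 had 134, 105 and 157.

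**Figure D4:**
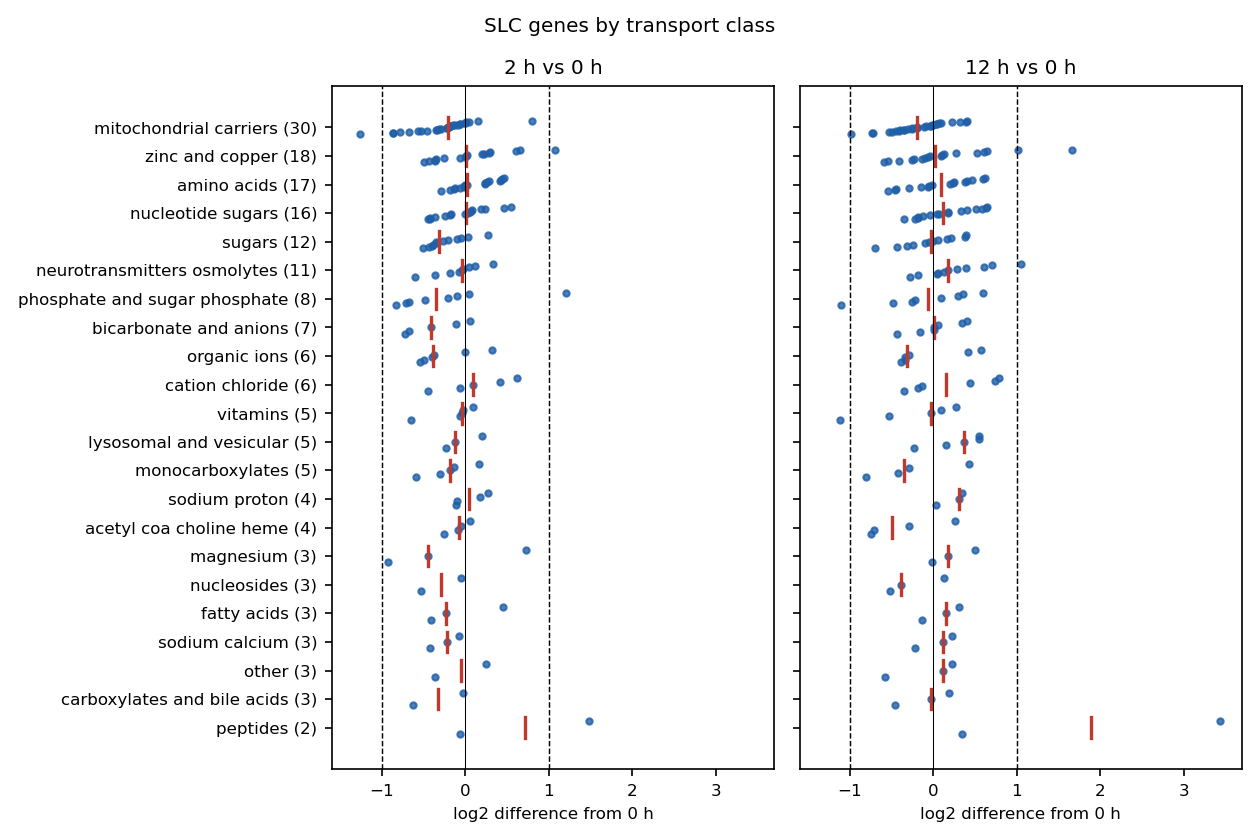
Log2 difference from 0 h at 2 h (left) and 12 h (right) of each measured SLC gene, 1 point a gene, by transport class with the number of members in brackets. Red bars are class medians and dashed lines mark 2-fold. Nearly all points lie inside the lines. Slc15a3 is the point farthest right in both panels, in the peptide class, and Slc31a2 the farthest right in the zinc and copper class.

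Other transporter families and partners were read in the same way. Of the 23 ABC transporter genes over the same signal threshold, 22 were measured at 2 h. None of them was at least 2-fold higher and 1 was lower (Abcg8), against 2.09% and 1.68% of all genes. At 12 h 2 of 23 ABC genes (8.70%) were at least 2-fold higher and none was lower, against 3% and 2.39% of all genes. The 2 were Abca1, the cholesterol exporter, with 63.2, 79.9 and 142, and Abcd4, a lysosomal cobalamin transporter, which was 2.84-fold higher at 12 h than at 0 h. Of 9 partner genes on the array, which include the carrier chaperone Bsg, subunits of the sodium pump and the mitochondrial pyruvate carrier gene Mpc1, none was 2-fold apart at either time. The shares of all genes at least 2-fold apart were 3.77% at 2 h and 5.40% at 12 h. Bsg had 631, 765 and 689, and Atp1b3, a sodium pump subunit, had 1421, 1705 and 2169, a log2 difference of 0.61 at 12 h.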

How the data were processed

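Total RNA of RAW264.7 cells at 0, 2 and 12 h of LPS was hybridised to 1 array a time, from 5 µg of RNA by a modified Affymetrix procedure, per the labels. Linear intensity values of 22690 probe sets were deposited, without detection calls. How they were summarised from probes is not stated in the labels. The 2% trimmed mean of the deposited values was 150.05 on each array, so they had been scaled before deposit.

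Arrays were rescaled to one trimmed mean with control probe sets left out, a shift of at most 0.16%. Of the probe sets, 20380 named 1 gene in the platform annotation and were used, 691 named several, and 1606 that it does not list are unnamed here. Symbols came from RefSeq of GRCm38.p6 through gene identifiers (20351 matched). A gene was represented by its probe set of highest mean log2 signal. Signals were floored and compared on the log2 scale, with 2-fold as the size that counts. The members to be named were those at least 2-fold apart, the 10 largest differences each way in each comparison, and those at the threshold. The brightest members, and the brightest and most different of each class, were also on that list. Not all of the list is described, and Slc14a2, Slc30a4, Slc30a9, Slc25a45, Slc35e4 and Slc39a6 are among those left out. Many further members, such as Slc15a4, Slc31a1 and Slc39a7, were added as examples once their values were known. Members and lists were chosen with earlier results of these data known. The counting was tested on simulated data. The alternatives were the deposited scaling, median or quantile normalization, a floor at the 20th or the 60th percentile, a pseudocount of 32 in its place, the median over probe sets, probe sets without a suffix, and folds of 1.5 and 3. Python 3.11.15, numpy, pandas and scipy were used. The number of arrays limits the precision.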

Additional observations from a re-analysis of the deposited data

How the results depend on the processing

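The median log2 differences of the SLC genes moved by less than the spread between probe sets under every alternative run. That spread is of single genes, and a median over many genes could hardly move so far, so this is a weak check. The median at 2 h changed sign, from -0.11 as reported to 0.02 with median scaling. The one at 12 h, 0.01 as reported, ranged from -0.01 to 0.06. The 6 counts of members at least 2-fold apart were within 1.5 times the reported value under rescaling, median scaling and quantile normalization. With a fold of 1.5 there were 8 higher and 15 lower at 2 h, 15 and 10 at 12 h, and 20 and 9 for 12 h against 2 h. With a fold of 3 there were 0 and 0, 2 and 0 (Slc15a3 and Slc31a2), and 1 and 0 (Slc15a3). With the floor at the 20th percentile, 7 were lower at 2 h, 8 higher and 5 lower at 12 h, and 12 higher and 4 lower for 12 h against 2 h. With it at the 60th percentile, 0 were lower at 2 h and 3 were higher at 12 h against 2 h. With the pseudocount, which shrinks dim genes, 0 were lower at 2 h, 2 higher and 0 lower at 12 h, and 3 higher and 0 lower for 12 h against 2 h. The share of all genes at least 2-fold lower at 2 h, 1.68% as reported, moved the same way under these 3 settings. It was larger with the floor at the 20th percentile, and smaller with the 60th percentile and with the pseudocount. The rise to 7 lower members at 2 h is therefore not particular to SLC genes. For the other comparisons under these settings, the counts are given here without shares of all genes and are no result about SLC genes. By the median over probe sets, 1 member was lower at 12 h (Slc37a2) and 0 for 12 h against 2 h. Without suffixed probe sets, 1 was lower at 12 h (Slc19a2), since Slc37a2 has only a suffixed one. Slc15a3 was at least 2-fold higher at both times under every alternative except the fold of 3 at 2 h. Of the values of single named genes under alternatives, 1574 stayed within the spread between probe sets, 55 moved further and none that had been 2-fold apart turned its sign. Many of these values could not move, such as that of a gene with 1 probe set under the median over probe sets. Genes no longer measured under an alternative were left out of the tally. No paired analysis was possible because each time has 1 array. Dim signals limit the members near the floor.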

Other observations

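A further 3 probe sets name an SLC gene together with another gene and were left out of the comparisons. One names Slc28a2b and Slc28a2, concentrative nucleoside carriers, and had signals of 12.4, 2.30 and 58.1 at 0, 2 and 12 h, above the floor of 34.96 at 12 h only. Which of the 2 genes it reads was not determined. The other probe sets, for Slc22a30 with Slc22a29 and for Slc9a7 with a second gene, were under the floor on all 3 arrays.

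Of the 3 Slco genes over the signal threshold, organic anion carriers outside the Slc naming, Slco1a4 had signals of 13.8, 44.5 and 15.1, above the floor at 2 h only. Slco2a1, a prostaglandin carrier, had log2 differences of 0.05 at 2 h and 0.14 at 12 h.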
